A study of Homo sapiens with 12 samples.

Results

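The immediate-early genes FOS, FOSB, JUN, JUNB, JUND, EGR1, EGR2, EGR3, IER2 and DUSP1 were described in 2 human neuroblastoma cell lines treated with the BET bromodomain inhibitor JQ1. A probe set, the group of short probes that reads a transcript on the array, was included when the platform annotation paired it with exactly 1 gene and that gene was one of these 10. The rule gave 27 of 44988 such probe sets, and they read 9 of the 10 genes. EGR2 was not analysed here. FOS was read by 4 probe sets, FOSB by 2, JUN by 4, JUNB by 1, JUND by 1, EGR1 by 6, EGR3 by 4, IER2 by 1 and DUSP1 by 4.

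The 12 samples formed 4 groups of 3 arrays. Kelly cells received DMSO, the solvent and vehicle control, or 1 µM JQ1 for 24 h, and BE(2)-C cells received the same agents at the same dose and time. Both are established lines with extra copies of the oncogene MYCN, and BE(2)-C is a clone derived from another neuroblastoma line, so each is a single cell source. JQ1 occupies the acetyl-lysine pocket of BET proteins and displaces them from chromatin. The 3 replicates of a group are not described as separate cultures; the p-values therefore cover only the scatter among the 12 samples, part or all of which may be technical. In bulk RNA, fewer cells that express a gene and less RNA per cell cannot be told apart.

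Immediate-early genes are those that a cell transcribes within minutes of a stimulus, from transcription factors and polymerase already in place. Kinases of the ERK, JNK and p38 pathways act on SRF, its ternary complex partners such as ELK1, and CREB, which bind at these genes. FOS and JUN proteins pair through leucine zippers into the AP-1 transcription factor, EGR proteins are zinc finger transcription factors, IER2 encodes a nuclear protein, and DUSP1 encodes a phosphatase that switches MAP kinases off. The transcripts are short-lived, and a sample taken after 24 h reads their standing level rather than the first burst.

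The stretches ahead of the starts of JUN, EGR1, DUSP1 and FOS are shown because JUN carried the JQ1 calls, EGR1 and DUSP1 carried calls between the lines, and FOS is the gene to which the others are usually compared. They come from RefSeq on GRCh38.p14 and are written 5′ to 3′ on the strand of the gene, in lower case. Capitals mark matches, on either strand, to the CArG box bound by SRF, to the CRE letters TGACGTCA and their TGACG core, which overlap, and to TGACATCA, the AP-1 type element of the JUN gene.
JUN, chr1:58784098-58784177, minus strand: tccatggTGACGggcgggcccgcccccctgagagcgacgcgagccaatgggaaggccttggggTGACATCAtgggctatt
EGR1, chr5:138465339-138465418, plus strand: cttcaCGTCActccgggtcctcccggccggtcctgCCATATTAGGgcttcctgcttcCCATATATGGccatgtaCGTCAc
DUSP1, chr5:172771296-172771335, minus strand: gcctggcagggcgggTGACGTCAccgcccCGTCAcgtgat
FOS, chr14:75278748-75278787, plus strand: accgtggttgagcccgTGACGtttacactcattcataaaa
The table held 11 windows of 300 bases for these genes, from 250 before to 50 after a start; EGR3 had none. A CArG box was found in 2 of the 11 windows, that of EGR1, which held 2 of them, and 1 window of EGR2, against 1.29% of all 35116 windows. TGACATCA was found for JUN alone, against 2.61% of all windows, TGACGTCA for DUSP1 and JUND, against 1.85%, and TGACG in 9 of the 11, against 24.6%. The AP-1 letters TGANTCA and the EGR letters GCGTGGGCG and GCGGGGGCG were in none of the 11 (7.71%, 0.795% and 5.07% of all windows). A match describes these letters in these windows and no more.

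The values are log2 intensities, and a difference of 1 is a doubling. A probe set was called when its Benjamini-Hochberg adjusted p from limma, over all 44988 probe sets, was under 0.05. The median standard error (SE) of a JQ1 difference within a line was 0.26 for the member probe sets, and the number of arrays limits this precision. The hybridization control signal, averaged on the log2 scale from 9 probe sets that read added bacterial transcripts, ran from 10.70 to 13.26 in Kelly with DMSO, 12.27 to 13.65 in Kelly with JQ1, 9.94 to 12.92 in BE(2)-C with DMSO and 10.33 to 12.70 in BE(2)-C with JQ1. Markers of sympathetic neuroblasts were bright (9 measured, summed intensity 30065 to 39908 over the arrays). The summed intensity lay between 381 and 724 for 8 fibroblast and Schwann cell markers, 123 and 232 for 5 leukocyte markers, and 291 and 628 for 6 epithelial markers. The fibroblast and Schwann cell sum was 672 to 724 in BE(2)-C with DMSO and 468 to 505 with JQ1, and its part in the member differences of that line was not tested.

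JUN rose in Kelly cells with JQ1, and in the fit without a replicate block it was the one gene of the 9 with a called probe set for JQ1 in either line. With the block, which treats same-numbered arrays of a line as pairs, DUSP1 11715766_a_at was called in Kelly too (limma adjusted p = 0.0365). The count there was then 3 of 27 (5.23% of all probe sets). Whether the numbers mark paired samples is not settled by these data. In Kelly 2 of the 27 member probe sets were called, both higher and both of JUN, where 4.35% of all probe sets were called and 0.958% were called higher. The annotation gives both the same source sequence, so they are not independent readings. In BE(2)-C 0 of the 27 were called by limma, where 2.81% of all were called (1.25% higher); 4 had an unadjusted p under 0.05, of which 3 were of JUN and 1 of EGR1. The median log2 difference of the 27 was 0.37 in Kelly, against 0.05 over all probe sets, and 0.18 in BE(2)-C, against -0.01. Of the 27, 23 lay above 0 in Kelly and 20 in BE(2)-C. Many of the 27 read the same gene, so these are not counts of independent members. The share of all probe sets above 0 was not counted, nor was that with an unadjusted p under 0.05. Read from the brightest probe set of each gene, 0 of the 9 genes were called in either line (5.52% and 3.77% of all genes). The groups did not overlap in 7 of the 27 in Kelly (21.7% of all probe sets) and in 8 of the 27 in BE(2)-C (19.2%), shares near those of the whole array.

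**Figure D1:**
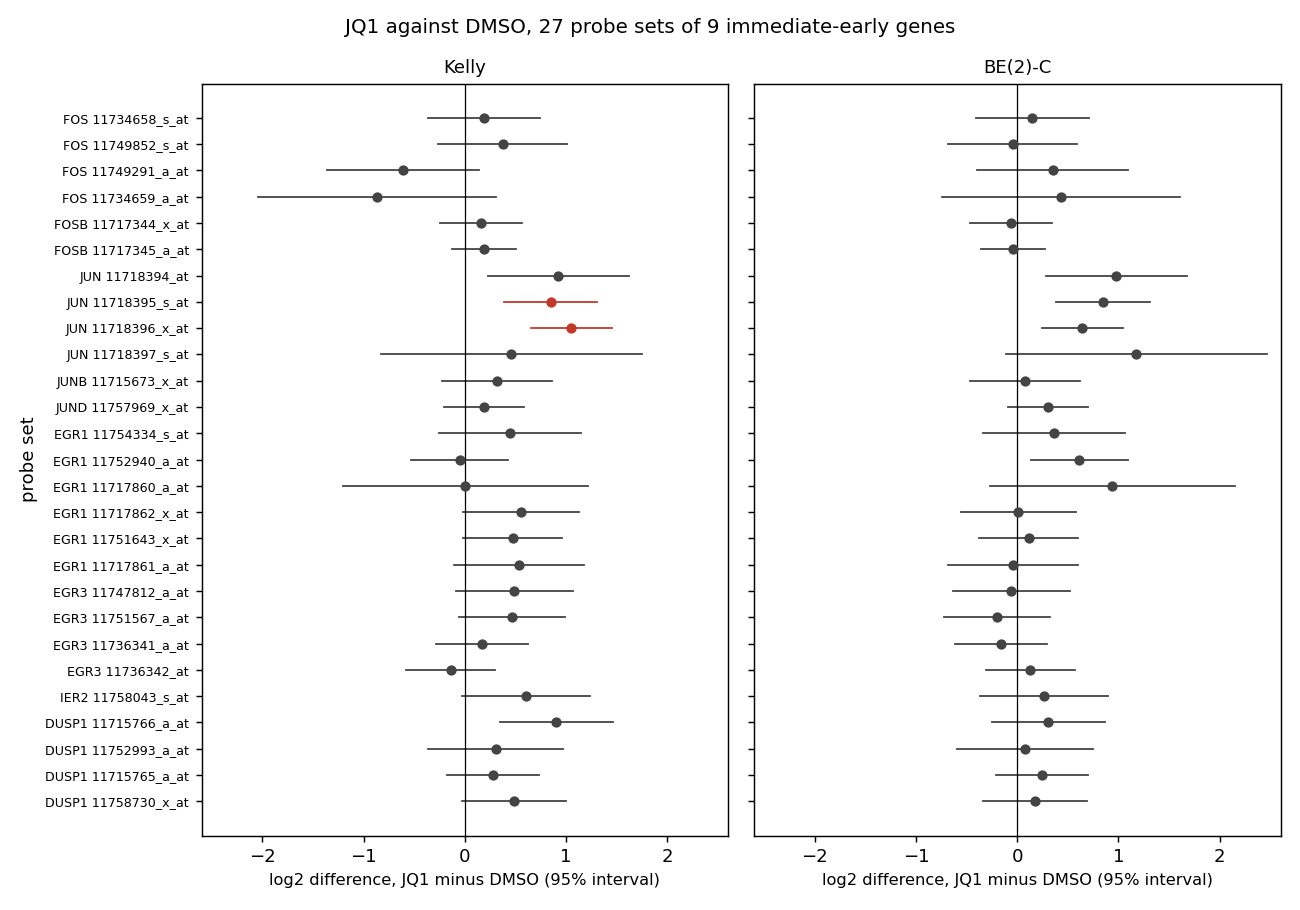
Log2 difference (JQ1 minus DMSO, points) with its 95% interval from limma (bars) for the 27 probe sets of 9 immediate-early genes, Kelly at left and BE(2)-C at right, with called probe sets in red. The red points are JUN in Kelly, at 0.85 and 1.05, and the 4 JUN points lie above 0 in both lines.

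JUN encodes the AP-1 subunit that can pair with itself or with FOS proteins. Its probe set 11718396_x_at read 8.51, 8.43 and 8.39 in Kelly with DMSO and 9.43, 9.79 and 9.25 with JQ1. The same probe set in BE(2)-C read 8.49, 7.92 and 7.98 with DMSO and 8.72, 8.74 and 8.86 with JQ1. Every JQ1 array lay above every DMSO array of its line. The rise in Kelly was 2.07-fold (log2 difference 1.05, SE 0.18, limma adjusted p = 0.00689, higher in 3 of 3 same-numbered pairs), and it was called under all 19 alternatives, with adjusted p from 0.00101 to 0.0426. In BE(2)-C the log2 difference was 0.64 (95% interval 0.24 to 1.04, adjusted p = 0.0996). That difference was called without BE(2)-C DMSO replicate 1 (0.82, adjusted p = 0.0284), the array highest of its group in control signal.

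Probe set 11718395_s_at of JUN read 8.62, 8.83 and 8.48 in Kelly with DMSO and 9.53, 9.87 and 9.08 with JQ1. BE(2)-C read 7.78, 8.13 and 8.38 with DMSO and 8.91, 9.04 and 8.88 with JQ1. Neither line's groups overlapped. It rose by 0.85 on the log2 scale in Kelly (SE 0.21, limma adjusted p = 0.0442) and had the same difference of 0.85 in BE(2)-C (95% interval 0.38 to 1.31, adjusted p = 0.0577), on the other side of the threshold. For JUN in Kelly the adjusted p passed 0.05 with any Kelly DMSO array removed (replicate 1 0.146, replicate 2 0.0774, replicate 3 0.0666), with JQ1 replicate 1 (0.0944) or 2 (0.150) of Kelly removed, and with BE(2)-C DMSO replicate 2 (0.0711) or any BE(2)-C JQ1 array removed (0.0761, 0.0694 and 0.0659). The call was also lost with the trend and robust prior (0.0631) and with Kelly alone (0.142). The BE(2)-C difference was called without Kelly JQ1 replicate 2 (0.0480) or 3 (0.0245), arrays that enter it through the shared spread alone.

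The brightest JUN probe set, 11718394_at, read 8.32, 8.61 and 7.74 in Kelly with DMSO and 9.53, 9.29 and 8.62 with JQ1. BE(2)-C read 7.90, 8.64 and 8.87 with DMSO and 9.44, 9.79 and 9.10 with JQ1. The JQ1 arrays again lay above the DMSO arrays of their line, by a narrow gap in Kelly between 8.61 and 8.62. The log2 differences were 0.92 in Kelly (95% interval 0.23 to 1.62, limma adjusted p = 0.138) and 0.98 in BE(2)-C (0.28 to 1.67, adjusted p = 0.159). In the order of the 4 groups, Kelly with DMSO came lowest at 8.23 ± 0.44 (SD, n = 3), then BE(2)-C with DMSO at 8.47 ± 0.51, Kelly with JQ1 at 9.15 ± 0.47 and BE(2)-C with JQ1 at 9.45 ± 0.34. Each neighbouring pair in that order overlapped.

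The remaining JUN probe set, 11718397_s_at, varied most between replicates. It read 8.03, 8.38 and 6.47 in Kelly with DMSO, 8.64, 8.42 and 7.19 with JQ1, 6.25, 8.00 and 8.24 in BE(2)-C with DMSO and 8.70, 9.12 and 8.21 with JQ1. The low arrays were replicate 3 of both Kelly groups and replicate 1 of BE(2)-C with DMSO, whose control signals were 13.26, 13.65 and 12.92. Those were the 3 highest of the 12 arrays. The next in control signal were not low in this way: Kelly JQ1 replicate 2, at 12.89, read 8.42. BE(2)-C JQ1 replicate 3, at 12.70, read 8.21, the lowest of its group. The log2 differences were 0.46 in Kelly (95% interval -0.83 to 1.75) and 1.17 in BE(2)-C (-0.11 to 2.46).

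**Figure D2:**
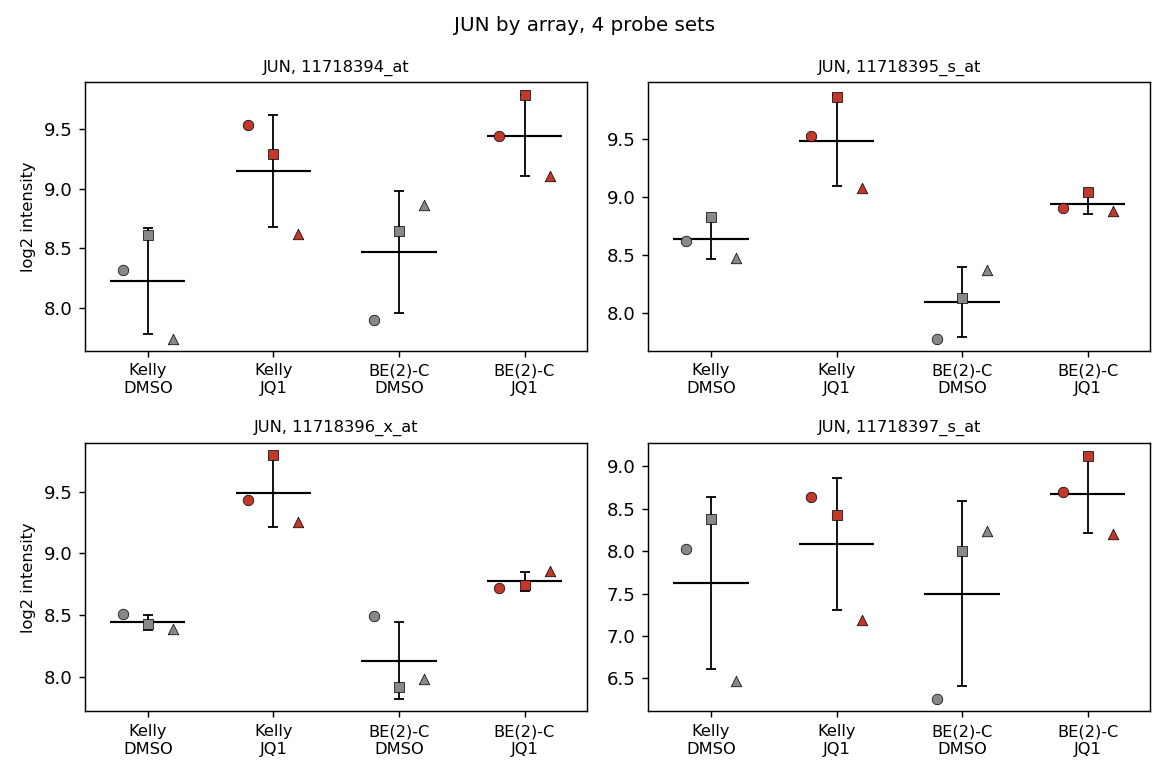
Log2 intensity of the 4 JUN probe sets on each array (circle, square and triangle for replicates 1, 2 and 3; grey for DMSO, red for JQ1), with the group mean (line) and SD (bar, n = 3). In 11718396_x_at the Kelly JQ1 arrays lie at 9.25 to 9.79 above DMSO arrays at 8.39 to 8.51.

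With the control signal of each array as a covariate, all 4 JUN probe sets were called higher in both lines. The limma log2 differences were then 0.98 to 1.28 in Kelly (adjusted p from 8.55e-05 to 0.0069) and 0.63 to 1.31 in BE(2)-C (adjusted p from 0.000251 to 0.0225). That fit called 4116 of all 44988 probe sets in Kelly and 5281 in BE(2)-C, against 1958 and 1263 without the covariate. The JQ1 difference of JUN did not pass a test between the lines in any probe set: the difference between them (BE(2)-C minus Kelly) was 0.05 in 11718394_at (95% interval -0.93 to 1.04), 0.00 in 11718395_s_at (-0.65 to 0.65), -0.41 in 11718396_x_at (-0.98 to 0.16) and 0.71 in 11718397_s_at (-1.11 to 2.54). For none of the 27 member probe sets was that difference called by limma (lowest adjusted p = 0.505, 0 with an unadjusted p under 0.05), where 0.327% of all were called.

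Averaged over the lines, a contrast added after the values of each line had been seen, 3 of the 27 probe sets were called, all higher and all of JUN, where 7.53% of all were called and 2.47% were called higher. JUN rose by 0.95 in 11718394_at (SE 0.23, limma adjusted p = 0.0232), by 0.85 in 11718395_s_at (SE 0.15, adjusted p = 0.00463) and by 0.85 in 11718396_x_at (SE 0.13, adjusted p = 0.00187). The first of these calls needed Kelly DMSO replicate 1 (0.0514 when it was removed), replicates 1 (0.0590) and 2 (0.0623) of Kelly with JQ1, and replicates 1 (0.0602) and 2 (0.0638) of BE(2)-C with JQ1. The other calls of JUN in the average held under every alternative.

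JUNB and JUND encode the other JUN proteins, which share the leucine zipper and are each read by 1 probe set here. JUNB read 7.60, 7.05 and 7.65 in Kelly with DMSO and 7.84, 7.94 and 7.49 with JQ1, and 8.15, 7.57 and 7.33 in BE(2)-C with DMSO and 7.70, 7.49 and 8.08 with JQ1. Its groups overlapped in both lines, with log2 differences of 0.32 (95% interval -0.22 to 0.86) and 0.07 (-0.47 to 0.62). JUND differed by 0.19 in Kelly (-0.20 to 0.58) and 0.31 in BE(2)-C (-0.09 to 0.70). Neither gene was called with all 12 arrays and the 4 group means, and their intervals reach the size of some JUN differences.

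FOS encodes the classical partner of JUN, and its probe sets did not move together. In 11734659_a_at it read 7.22, 5.43 and 4.15 in Kelly with DMSO and 4.88, 4.69 and 4.62 with JQ1. The BE(2)-C arrays read 4.50, 4.19 and 4.22 with DMSO and 4.82, 4.95 and 4.44 with JQ1. Kelly DMSO replicate 1 stood highest of the 12 arrays and replicate 3 lowest, so the Kelly DMSO group, at 5.60 ± 1.54 (SD, n = 3), spanned all the others. The log2 difference of FOS was -0.87 in Kelly (95% interval -2.05 to 0.30, limma adjusted p = 0.372) and 0.43 in BE(2)-C (-0.75 to 1.60). Without Kelly DMSO replicate 3 the Kelly difference was called (-1.59, adjusted p = 0.0317), and without Kelly DMSO replicate 1 it was -0.06.

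Probe set 11749291_a_at of FOS also had Kelly DMSO replicate 1 highest, at 6.73, with replicates 2 and 3 at 5.26 and 5.03 and the JQ1 arrays at 5.28, 5.08 and 4.83. Its log2 differences were -0.61 in Kelly and 0.35 in BE(2)-C. The brighter FOS probe sets, 11734658_s_at and 11749852_s_at, had differences of 0.19 and 0.37 in Kelly and 0.15 and -0.05 in BE(2)-C. In 11734658_s_at FOS read 7.41, 6.73 and 7.49 in Kelly with DMSO and 7.50, 7.35 and 7.37 with JQ1, without the high replicate seen in the dimmer probe sets. The direction of the FOS difference in Kelly thus depended on the probe set, and none was called.

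FOSB, which encodes a FOS protein with a long and a truncated form, varied little. Its 2 probe sets differed by 0.16 and 0.19 in Kelly and by -0.07 and -0.04 in BE(2)-C. The 95% intervals reached from -0.47 to 0.56 over both probe sets and lines. Like FOS, JUNB and JUND, it had no call with all 12 arrays and the 4 group means.

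EGR1 encodes a zinc finger factor that is induced by growth factor and neuronal stimuli. It was called higher in BE(2)-C than in Kelly in 3 of its 6 probe sets under JQ1 and in 1 under DMSO. Its brightest probe set, 11754334_s_at, read 7.65, 6.40 and 6.05 in Kelly with DMSO and 7.32, 7.01 and 7.10 with JQ1. BE(2)-C arrays read 7.66, 8.02 and 8.17 with DMSO and 8.38, 8.36 and 8.21 with JQ1. Every BE(2)-C array lay above every Kelly array, although Kelly DMSO replicate 1, at 7.65, lay just under the lowest BE(2)-C array at 7.66. The line difference of EGR1 was 2.38-fold under DMSO (log2 difference 1.25, SE 0.32, limma adjusted p = 0.0232) and 2.26-fold under JQ1 (1.17, SE 0.32, adjusted p = 0.0234).

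The ACTB 3′ minus 5′ log2 signal, a sign of RNA quality that is larger where transcripts are shortened, was 1.24 to 2.22 in Kelly with DMSO, 1.25 to 2.24 in Kelly with JQ1, 0.63 to 1.24 in BE(2)-C with DMSO and 0.83 to 0.99 in BE(2)-C with JQ1. It was higher on average in Kelly, where the called EGR1 probe sets were lower. Under DMSO the lines met at 1.24, and under JQ1 they did not overlap. The same signal of GAPDH had means of 0.26 in Kelly and 0.27 in BE(2)-C under DMSO. Under JQ1 its means were 0.39 in Kelly and 0.17 in BE(2)-C. The part of either signal in the EGR1 line difference was not tested. The DMSO call of that probe set of EGR1 failed when Kelly DMSO replicate 2 (adjusted p = 0.0786) or 3 (0.0750) was removed, or BE(2)-C DMSO replicate 2 (0.0812) or 3 (0.0878). The JQ1 call failed when replicate 2 (0.0718) or 3 (0.0687) of Kelly with JQ1 or replicate 1 (0.0751) or 2 (0.0782) of BE(2)-C with JQ1 was removed, with quantile normalization (0.0502) and with the control signal as a covariate (0.0521). Under JQ1, EGR1 was also called higher in BE(2)-C in 11717860_a_at (5.91-fold, log2 difference 2.56, SE 0.56, limma adjusted p = 0.00695) and in 11752940_a_at (2.21-fold, 1.14, SE 0.22, adjusted p = 0.00356), and these calls held under every alternative. In 11717860_a_at EGR1 read 6.09, 5.52 and 5.18 in Kelly with JQ1 and 8.14, 8.42 and 7.91 in BE(2)-C with JQ1. Under DMSO it read 6.76, 5.61 and 4.40 in Kelly and 6.08, 7.85 and 7.73 in BE(2)-C, with groups that overlapped.

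The other 3 EGR1 probe sets gave no call between the lines. Under JQ1 their log2 differences (BE(2)-C minus Kelly) were -0.32 in 11717862_x_at and in 11751643_x_at and -0.47 in 11717861_a_at, and under DMSO 0.22, 0.04 and 0.11. These 3 followed the control signal upward, with slopes of 0.25, 0.18 and 0.30 log2 units for each log2 unit of control signal (limma adjusted p = 0.00252, 0.0176 and 0.000678). The 3 with a call between the lines had slopes of -0.15, -0.15 and -0.50, of which the last was called (adjusted p = 0.00622). The annotation does not say which stretch of the transcript each one reads, and the part of the control signal in these differences between probe sets was not tested.

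JQ1 did not give a call for EGR1 in either line. The log2 differences of its 6 probe sets ran from -0.05 to 0.55 in Kelly and from -0.04 to 0.94 in BE(2)-C. In BE(2)-C the JQ1 arrays of 11754334_s_at, 11752940_a_at and 11717860_a_at lay above all DMSO arrays, by mean log2 differences of 0.37, 0.61 and 0.94. The second of these had a 95% interval of 0.13 to 1.10 (limma adjusted p = 0.218), and it was called with the control signal as a covariate (0.65, adjusted p = 0.0258). In Kelly the groups did not overlap in 11717862_x_at, 11751643_x_at and 11717861_a_at, where EGR1 differed by 0.55, 0.47 and 0.54. Without Kelly DMSO replicate 1, 11754334_s_at was called higher with JQ1 in Kelly (0.92, adjusted p = 0.0431).

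**Figure D3:**
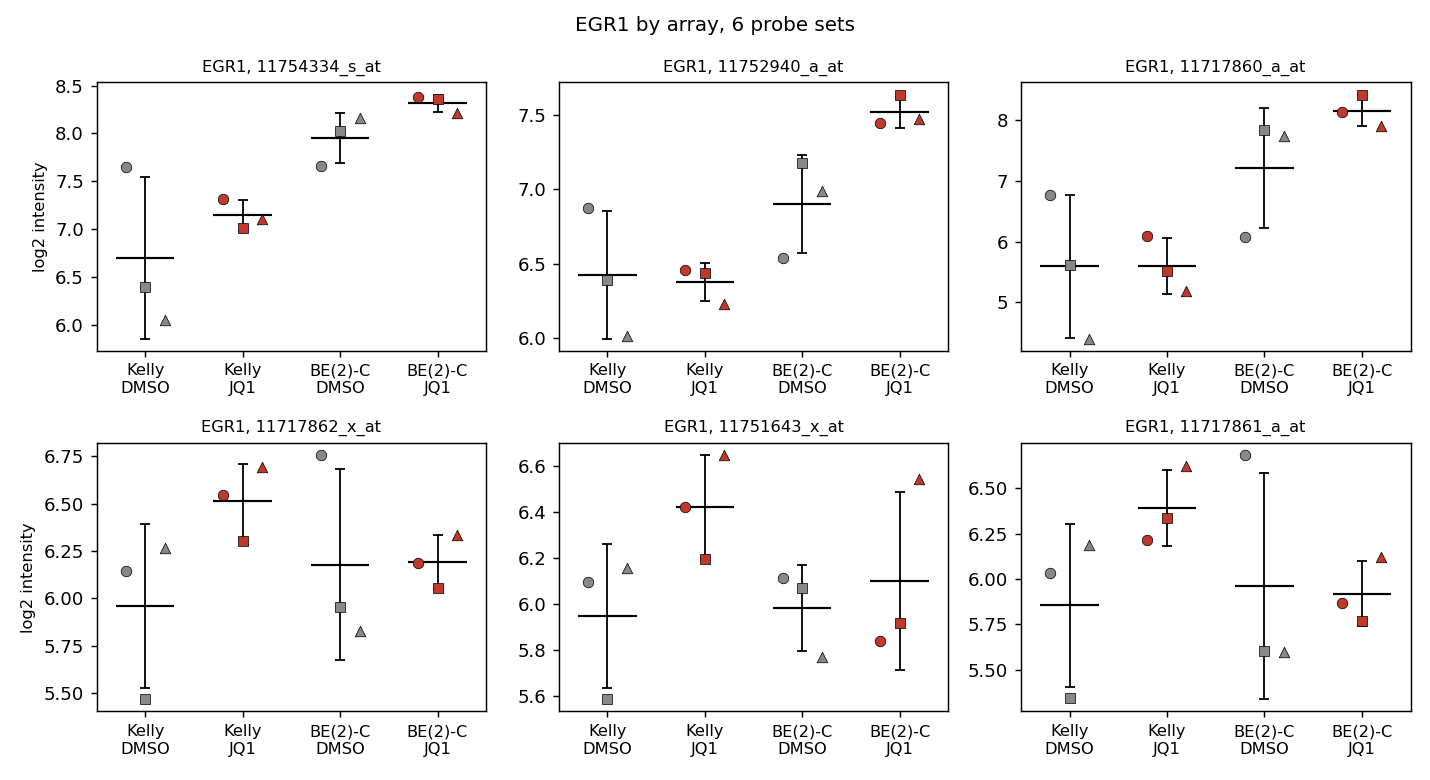
Log2 intensity of the 6 EGR1 probe sets on each array (circle, square and triangle for replicates 1, 2 and 3; grey for DMSO, red for JQ1), with group mean (line) and SD (bar, n = 3). In the 3 upper panels the BE(2)-C JQ1 arrays lie above the Kelly JQ1 arrays, and in the 3 lower panels the means of the 4 groups lie between 5.86 and 6.51.

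EGR3, a related zinc finger factor with a role in muscle spindles and in T cells, was read by 4 probe sets, of which the brightest had group means of 5.56 to 6.15. Its log2 differences ran from -0.14 to 0.49 in Kelly and from -0.20 to 0.13 in BE(2)-C, and none was called. In the brightest, 11747812_a_at, EGR3 read 5.64, 5.25 and 6.07 in Kelly with DMSO and 6.03, 6.04 and 6.38 with JQ1, and 6.21, 5.44 and 5.20 in BE(2)-C with DMSO and 5.46, 5.44 and 5.78 with JQ1. All 4 EGR3 probe sets rose with the control signal, with slopes of 0.14 to 0.28 (limma adjusted p from 0.000319 to 0.0496). In 11747812_a_at and 11751567_a_at the arrays highest in EGR3 were Kelly JQ1 replicate 3 and BE(2)-C DMSO replicate 1, both among the 3 of highest control signal. In 11736341_a_at the 2 highest were BE(2)-C DMSO replicate 1 (4.96) and Kelly DMSO replicate 3 (4.95), also both among those 3. In 11736342_at they were Kelly DMSO replicate 3 (4.84) and BE(2)-C JQ1 replicate 1 (4.54), of which the second was not among those 3.

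DUSP1 is the phosphatase that inactivates p38, JNK and ERK. In 1 of its 4 probe sets it was called higher in Kelly than in BE(2)-C under JQ1. Its brightest probe set, 11715766_a_at, read 8.08, 7.46 and 7.50 in Kelly with DMSO and 8.98, 8.80 and 7.98 with JQ1. BE(2)-C arrays read 7.38, 6.90 and 7.22 with DMSO and 7.43, 7.44 and 7.56 with JQ1. Under JQ1 BE(2)-C was lower by a log2 difference of -1.11 (SE 0.26, limma adjusted p = 0.00962), a call that held under every alternative. The other DUSP1 probe sets differed by -0.415, -0.41 and -0.504 under JQ1 (limma adjusted p = 0.341, 0.178 and 0.143), with groups that overlapped. The ACTB 3′ minus 5′ signal was higher in Kelly with JQ1 as well (1.25 to 2.24 against 0.83 to 0.99), and its part in the DUSP1 difference was not tested. Under DMSO the difference in 11715766_a_at was -0.51 (95% interval -1.07 to 0.04, limma adjusted p = 0.274).

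The JQ1 difference of that DUSP1 probe set was 0.90 in Kelly (95% interval 0.35 to 1.46, limma adjusted p = 0.0723), higher in 3 of 3 same-numbered pairs, with groups that overlapped because JQ1 replicate 3 lay below DMSO replicate 1. It was called with a replicate block (adjusted p = 0.0365), with quantile normalization (1.12, 0.0152), with the control signal as a covariate (0.92, 0.0404) and without Kelly JQ1 replicate 3 (1.21, 0.0120). The BE(2)-C difference was 0.31 (-0.25 to 0.86), and the groups did not overlap. The other DUSP1 probe sets, all dimmer, had Kelly differences of 0.28 to 0.49 and BE(2)-C differences of 0.07 to 0.24, and none was called. In the order of the groups of 11715766_a_at, BE(2)-C with DMSO came lowest at 7.17 ± 0.25 (SD, n = 3), then BE(2)-C with JQ1 at 7.48 ± 0.07, Kelly with DMSO at 7.68 ± 0.35 and Kelly with JQ1 at 8.59 ± 0.53. The middle pair overlapped, as did both Kelly groups.

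IER2, a nuclear protein of the immediate-early response, was read by 1 probe set. It read 8.60, 8.55 and 7.81 in Kelly with DMSO and 9.34, 9.09 and 8.34 with JQ1, and 8.81, 9.48 and 9.47 in BE(2)-C with DMSO and 9.49, 9.68 and 9.39 with JQ1. In Kelly each JQ1 array lay above the DMSO array of the same number, though the groups overlapped. The log2 difference was 0.61 in Kelly (95% interval -0.03 to 1.24, limma adjusted p = 0.267) and 0.26 in BE(2)-C (-0.37 to 0.90, adjusted p = 0.985). IER2 was called higher with JQ1 in Kelly with quantile normalization (0.84, adjusted p = 0.0204) and with the control signal as a covariate (0.88, adjusted p = 0.0101), and its own slope on that signal was -0.27. Under DMSO it was higher in BE(2)-C by 0.94 (0.30 to 1.57, adjusted p = 0.0569).

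**Figure D4:**
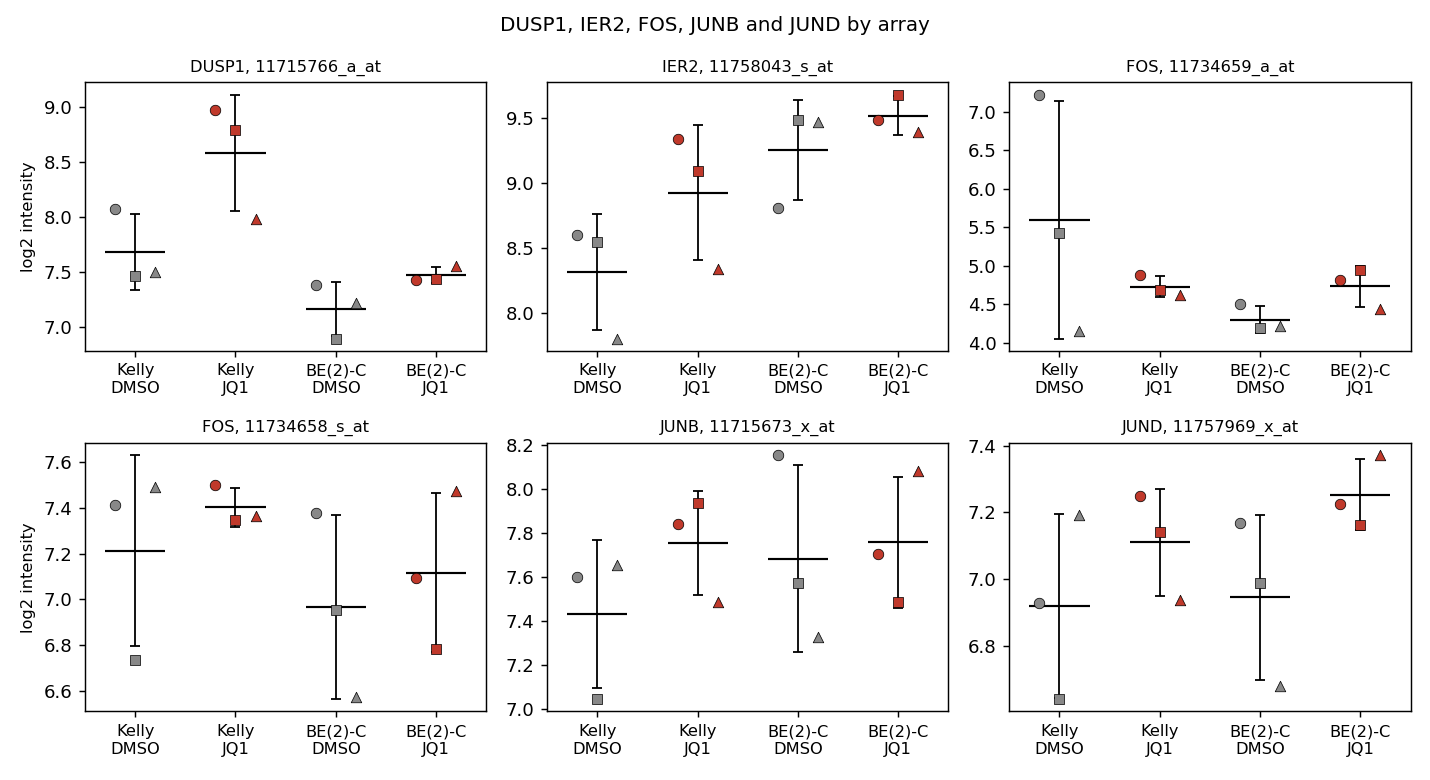
Log2 intensity on each array of DUSP1 and IER2, of 2 FOS probe sets, and of JUNB and JUND (circle, square and triangle for replicates 1, 2 and 3; grey for DMSO, red for JQ1), with group mean (line) and SD (bar, n = 3). Kelly DMSO replicate 1 stands at 7.22 in FOS 11734659_a_at, above the other 11 arrays.

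Between the lines under DMSO 1 of the 27 member probe sets was called, EGR1 11754334_s_at, where 12.3% of all probe sets were called. Under JQ1 5 of the 27 were called, where 20.2% of all were: 3 of EGR1 were higher in BE(2)-C (12.6% of all) and 1 each of JUN and DUSP1 lower (7.64% of all). The JUN call, in 11718396_x_at (-0.72, limma adjusted p = 0.0166), failed when replicate 2 of Kelly with JQ1 (0.0660) or replicate 1 (0.0641) or 2 (0.0632) of BE(2)-C with JQ1 was removed. The JUN probe sets did not share a direction there. The difference under JQ1 was -0.55 in 11718395_s_at, but 0.30 in the brightest, 11718394_at, and 0.59 in 11718397_s_at, none of them called. Both shares of members are near or below those of the whole array. The lines did not overlap in 5 of the 27 under DMSO (23.5% of all) and in 11 under JQ1 (48.2% of all). The comparisons under DMSO and under JQ1 share arrays with the JQ1 comparisons within the lines.

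The probe sets of a gene differed in how they followed the control signal. Its slope was called for 16 of the 27 member probe sets (59.3%), 11 upward and 5 downward, against 49.6% of all. Those with downward slopes were 3 of JUN, IER2 and EGR1 11717860_a_at, and those with upward slopes included all 4 of EGR3, 2 of FOS, 3 of EGR1, JUNB and 1 of DUSP1. JUN 11718396_x_at, which held the steadiest JQ1 call, had a slope of 0.07 (limma adjusted p = 0.313), and DUSP1 11715766_a_at one of -0.01 (0.897).

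**Figure D5:**
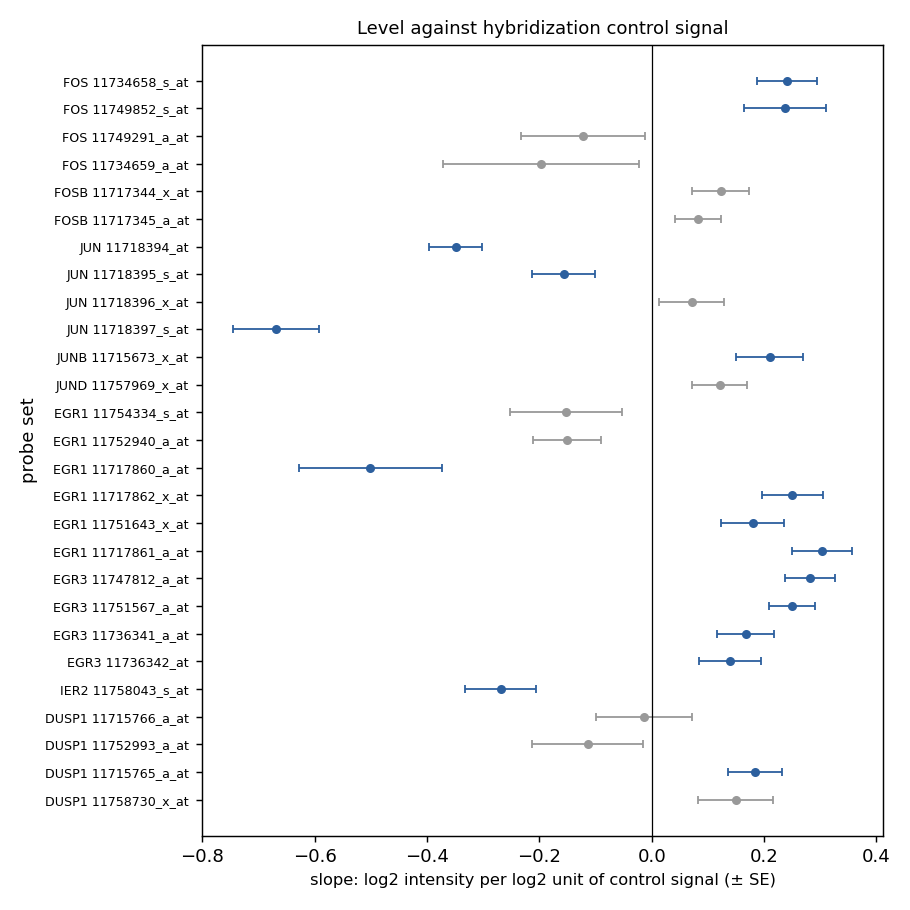
Slope of log2 intensity on the hybridization control signal (points, with SE bars) for the 27 probe sets, from a fit with the 4 group means and the control signal; called slopes are blue. The JUN slopes run from -0.67 to 0.07 and the EGR3 slopes from 0.14 to 0.28.

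Genes whose profile was most like a member's were sought among the brightest probe sets of all genes, as the smallest root mean square difference over the 12 arrays after each was centred on its own mean. For JUN these were SLC12A2, CBY1 and ITPR1 (differences of 0.18, 0.19 and 0.19 log2 units, against a spread of JUN itself of 0.61). For EGR1 they were DHRS7B, CDIPT and HS1BP3 (0.27, 0.31 and 0.32, against a spread of 0.74), and for DUSP1 STOX1, TRAF4 and HDAC3 (0.24, 0.24 and 0.25, against 0.60). For FOS 11734658_s_at they were CLDN19, KRTAP3-1 and DENND1C (0.10, 0.11 and 0.11, against 0.32). Of the members, IER2 came nearest to JUN (0.39) and to EGR1 (0.40), and EGR3 nearest to FOS (0.21). The probe sets read here for JUN and IER2 had called downward slopes on the control signal (-0.35 and -0.27). Those for FOS and EGR3 had called upward slopes (0.24 and 0.28), and that for EGR1 was not called (-0.15). The part of the control signal in these likenesses, including those to genes outside the members, was not tested.

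Other genes of the response were read from their brightest probe sets. Over 83 such genes 3 were higher and 5 lower in Kelly (9.64% called, against 5.52% of all genes read this way), and 4 were higher and 3 lower in BE(2)-C (8.43% against 3.77%). Of 11 AP-1 partners outside the members, BATF3 fell in both lines and the other 10 were not called. It fell by 1.32 in Kelly (limma adjusted p = 0.00117), and in BE(2)-C it fell by 1.01 (adjusted p = 0.00895). The BATF3 call in BE(2)-C was lost without BE(2)-C DMSO replicate 2 (0.0542) or JQ1 replicate 1 (0.0610) or 2 (0.0573).

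Of 18 kinases and factors that signal to SRF and CREB, MAPK3, the kinase ERK1, had log2 differences of -0.96 in Kelly (limma adjusted p = 0.00891) and -1.14 in BE(2)-C (adjusted p = 0.00481), both called. Its Kelly call was lost with quantile normalization (0.125) and with the arrays of Kelly alone (0.0743). MAPK8, the kinase JNK1 that phosphorylates JUN, rose by 0.94 in BE(2)-C (SE 0.14, limma adjusted p = 0.00451). In Kelly MAPK8 rose by 0.57 (adjusted p = 0.0455), a call lost in 11 of the 12 fits that leave out 1 array, with BE(2)-C DMSO replicate 1 the exception (adjusted p in those fits from 0.0527 to 0.189), and with the replicate block (0.0754), without dim probe sets (0.0610), with the trend and robust prior (0.110) and with Kelly alone (0.184). The SRF partner ELK4 rose by 1.07 in Kelly (adjusted p = 0.0324), a call that failed with Kelly alone (0.145) and when replicate 1 (0.124) or 2 (0.0994) of Kelly with DMSO, replicate 2 (0.0920) or 3 (0.0638) of Kelly with JQ1, or any array of BE(2)-C with JQ1 (0.0572, 0.0532 and 0.0520) was removed. SRF itself differed by -0.10 and 0.03.

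Among 32 other immediate-early genes 1 rose and 1 fell in Kelly, and 3 rose and 1 fell in BE(2)-C. NFKBIZ, an atypical inhibitor of NF-kappaB, rose in both lines. Its log2 differences were 1.48 in Kelly (limma adjusted p = 0.00229) and 1.23 in BE(2)-C (adjusted p = 0.0103; without BE(2)-C JQ1 replicate 1 0.0657, without DMSO replicate 2 0.0574). KLF2, a Kruppel-like factor, rose by 2.16 in BE(2)-C (adjusted p = 0.000172) and differed by 0.54 in Kelly. SGK1, a kinase induced by serum and glucocorticoids, fell by 1.47 in BE(2)-C (adjusted p = 0.00381) and differed by 0.50 in Kelly. TIPARP, a mono-ADP-ribosyltransferase, rose by 1.17 in BE(2)-C (adjusted p = 0.0452) and differed by 1.01 in Kelly (adjusted p = 0.0632, and 0.0166 with the replicate block). The TIPARP call in BE(2)-C failed when any array of that line was removed (adjusted p of 0.109, 0.160 and 0.0581 for the DMSO arrays and 0.163, 0.161 and 0.117 for the JQ1 arrays), when Kelly DMSO replicate 1 (0.0622) or Kelly JQ1 replicate 2 (0.0701) was, and with the trend and robust prior (0.0559). ZFP36L2, which destabilises transcripts and is named here after its value was seen, fell by 1.04 in Kelly (adjusted p = 0.00568, and 0.0691 with Kelly alone).

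Of 9 other MAP kinase phosphatases DUSP2 fell by 1.98 in Kelly (limma adjusted p = 0.000317), and no other call was made in either line. NAB1 and NAB2, co-repressors of EGR proteins, differed by -0.57 and 0.01 in Kelly and by -0.25 and -0.31 in BE(2)-C. Of 11 heat shock genes, HSPB1 fell by 1.18 in Kelly (limma adjusted p = 0.00172) and no other was called in either line. The median log2 differences of the heat shock genes were 0.02 and -0.15, against 0.45 and 0.26 for the 9 members read from their brightest probe sets and 0.08 and -0.01 over all genes read this way.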

How the data were processed

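The 12 RNA samples were hybridized to Affymetrix PrimeView arrays. RMA is named in the submitters' processing notes, without a version, and what the authors deposited is intensity, unlogged; log2 of each intensity was taken here, with no offset, filter or floor. The arrays were not even as deposited: medians ran from 61.4 to 67.3 and upper quartiles from 184.7 in Kelly JQ1 replicate 3 to 281.3 in BE(2)-C DMSO replicate 3. Probe sets were named from the platform annotation, with symbols updated through gene identifiers (99.94% matched), and controls, unnamed probe sets and those naming several genes were left out. No coordinate of the array was used.

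The 44988 probe sets were fitted with limma 3.58.1 in R 4.3.3 as 4 group means over 12 arrays, two-sided, with Benjamini-Hochberg adjustment and a threshold of 0.05. The test was tested on simulated data with known changes, for JQ1 in Kelly only. The simulated noise was drawn independently for each probe set and array, so signal shared across an array was not covered. The members, lists and tests were chosen with earlier results of these data known. All members are named; of each list, up to 4 called genes with the largest change, or the 2 largest, are named, with ZFP36L2 added. The alternatives were quantile normalization, leaving out probe sets with a mean under 5, a trend and robust prior, a replicate block, the control signal as a covariate, 1 probe set per gene, 1 line alone, and each array left out. Leaving out the 3 arrays of highest control signal was added after the data were seen.

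Same-numbered DMSO and JQ1 arrays, numbered in the titles, had residual correlations of 0.42, 0.23 and 0.51 in Kelly, all over 0.1. In BE(2)-C they were -0.04, 0.54 and -0.75. By that cut the numbers were read as pairs in Kelly and not in BE(2)-C, although the 0.54 lies above every Kelly value. These are correlations across probe sets, which are not independent replicates, so they cannot settle whether samples were paired.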

Additional observations from a re-analysis of the deposited data

Results flagged for a closer look

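By a limma interaction test, the JQ1 effect differed between the lines in 2 of the 83 other genes that were read (2.41%). It differed in none of the 27 member probe sets, where 0.327% of all probe sets were called. The share of all genes read from their brightest probe sets is not given for this test. KLF2 had an effect larger in BE(2)-C, with a log2 difference between the effects of 1.63 (SE 0.27, limma adjusted p = 0.0299), with mean levels of 5.61 and 6.14 in Kelly with DMSO and JQ1 and 8.48 and 10.64 in BE(2)-C. This KLF2 call was lost with the replicate block (0.0891), with the trend and robust prior (0.0542) and in 9 of the 12 fits that leave out 1 array. The exceptions were Kelly DMSO replicates 2 and 3 and BE(2)-C DMSO replicate 1, and the adjusted p of the 9 ran from 0.0575 to 0.112.

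SGK1 had an effect lower in BE(2)-C, with a difference of -1.97 (SE 0.31, limma adjusted p = 0.0200) and mean levels of 5.68, 6.18, 10.06 and 8.58 in the same order. The SGK1 call was lost without Kelly DMSO replicate 1 (0.0683), Kelly JQ1 replicate 1 (0.0544), BE(2)-C JQ1 replicate 1 (0.0826), 2 (0.0573) or 3 (0.0758), or BE(2)-C DMSO replicate 2 (0.0726) or 3 (0.0606).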

How the results depend on the processing

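The number of the 27 member probe sets called is given with the percentage of all probe sets called in the same fit. For JQ1 in Kelly it was 2 (4.35%), and 5 (5.75%) with quantile normalization, 6 (9.15%) with the control signal as a covariate, 1 (3.9%) with the trend and robust prior and 1 (1.63%) with Kelly alone. For JQ1 in BE(2)-C it was 0 (2.81%), and 2 (3.73%) with quantile normalization and 5 (11.7%) with the covariate. In the average over the lines it was 3 (7.53%), and 5 (9.13%) with quantile normalization and 6 (16.0%) with the covariate. Between the lines under DMSO it was 1 (12.3%), and 3 (14.0%) with quantile normalization, 2 of 24 (15.9%) without dim probe sets, 2 (11.8%) with a replicate block and 6 (23.4%) with the covariate. Between the lines that block joins arrays of the same number across Kelly and BE(2)-C, and no label says that these belong together. For the 83 other genes it was 8 in Kelly, 16 with the covariate and 4 with Kelly alone, and in BE(2)-C 7, and 18 with the covariate. Without the 3 arrays of highest control signal, replicate 3 of both Kelly groups and replicate 1 of BE(2)-C with DMSO, calls rose over the whole array. The member counts were then 7 in Kelly (6 higher, 1 lower, 20.2%), 2 in BE(2)-C (10.6%), 10 in the average (all higher, 26.7%), 7 under DMSO (3 higher and 4 lower in BE(2)-C, 20.1%) and 8 under JQ1 (3 higher, 5 lower, 32.3%), and the other genes gave 29 and 17; the cause was not tested. JUND in the average was called in that fit alone (0.42, limma adjusted p = 0.0191). Leaving out each array in turn gave member counts of 1 to 3 in Kelly, 0 to 1 in BE(2)-C, 2 to 4 in the average, 0 to 3 under DMSO and 3 to 6 under JQ1, and 6 to 10 and 4 to 9 for the other genes. No call of a member probe set turned its direction in any of 3006 refits of single values; in 153 of these an uncalled difference changed sign and stayed uncalled. Of the 3006, 29 lost and 77 gained a call. Same-numbered arrays of BE(2)-C had residual correlations of -0.04, 0.54 and -0.75, which cannot settle whether the numbers there mark pairs. Outside DUSP1 in Kelly and in the average, IER2 under DMSO, and MAPK8, TIPARP and KLF2, the replicate block changed no call of the values reported.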

Other observations

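Within Kelly with DMSO, replicate 1 was the highest of the 3 arrays in 12 of the 27 member probe sets (44.4%), against 16.4% of all probe sets, and replicate 3 in another 12, against 49.1%. In BE(2)-C with DMSO, replicate 1 was highest in 18 of the 27 (66.7%), against 48.2% of all. In Kelly with JQ1, replicate 1 was highest in 12 of the 27, against 32.8% of all, and in BE(2)-C with JQ1 replicate 3 was highest in 15 of the 27, against 44.7%.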
